A study of Bos taurus with 39 samples.

Results

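The miR-26 and miR-29 families were followed in 39 miRNA libraries of bovine oocytes. Every row of the known mature miRNA counts named bta-miR-26a, b or c, or bta-miR-29a to e (without an arm or as the 3p arm), was taken. This gave 8 members, 3 of miR-26 and 5 of miR-29, among 1995 miRNAs (1030 known and 965 predicted). A count in at least 1 library was found for 7 of them. Members were also summed by family.

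Oocytes came from cumulus-oocyte complexes (COCs) of slaughterhouse ovaries and were pooled for each library, so that a library is a pool of oocytes from several animals and no single oocyte or cow can be followed. Control oocytes matured inside their COCs. CBX oocytes matured inside COCs with carbenoxolone, a blocker of the gap junctions through which cumulus cells and oocyte exchange small molecules. Coculture oocytes were denuded of cumulus cells and shared the medium with COCs through an insert, without contact, and Denuded oocytes matured alone. Each of these 4 groups was sampled after 1, 6 and 22 h with 3 libraries, and 3 further Control libraries were labelled 0 h, which gives 13 conditions. Cumulus cells were removed before RNA isolation, and oocytes with a visible polar body were selected after maturation. COCs were then vortexed with hyaluronidase, whereas denuded oocytes had their zona taken off with pronase. The groups thus differed in this handling too, and its part in the counts was not tested. Nothing in the labels gives breed or age of the cows.

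MicroRNAs guide Argonaute proteins to messenger RNAs, mainly through the seed at their 5′ end, and members of a family share that seed. The miR-26 family lies in introns of genes for small phosphatases, is widely expressed, and is known to restrain proliferation and to act on EZH2, the enzyme that methylates histone H3 at silenced genes. The miR-29 family is known to act on DNA methyltransferases and on collagens and other matrix proteins, and it tends to be abundant in differentiated cells. In mouse oocytes miRNAs have been found to repress their targets only weakly, while stored messenger RNAs serve meiosis and the early embryo.

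In the RefSeq annotation of the bovine assembly ARS-UCD2.0, 10 hairpins of the families were found. MIR26B lies within CTDSP1, MIR26A-2 within CTDSP2 and MIR26A-1 within CTDSPL, and MIR26C takes the same span as MIR26A-1. MIR29A lies next to MIR29B-1 and MIR29B-2 next to MIR29C, and MIR29D and MIR29E lie together within LOC518224. The build of the counts was ARS-UCD1.2, so only names and neighbours were taken from this annotation.

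Library totals were shallow, between 11985 and 175429 counts (median 70069). Levels are therefore given as CPM, counts scaled to a common library size, after TMM normalization over all 39 libraries, a scaling that corrects for library total and composition. In the library with the largest total 3 counts, the detection floor used here, were worth 17.1 CPM and in that with the smallest 250.3 CPM. This floor accounts for counting error alone. In 3 libraries the total was under 25000: Control 0 h replicate 1, Control 6 h replicate 1 and CBX 22 h replicate 2. No libraries were identical. In a bulk pool of oocytes, fewer oocytes and less RNA per oocyte cannot be told apart. No miRNA that only oocytes express was among the lists checked, but miRNAs linked to granulosa and cumulus cells were present in every group, with a summed level between 4564 and 12644 CPM over the 36 libraries at 1, 6 and 22 h. Of that list of 7, bta-miR-212 had 0 counts and bta-miR-21-5p the most.

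The miR-26 family was abundant and carried by a pair of members. bta-miR-26a had 33841 counts over all libraries (80.6% of the family) and bta-miR-26b 8170 (19.4%), and both were counted in 39 of 39 libraries. bta-miR-26c had 0 counts. In the mean over 39 libraries, bta-miR-26a stood at 11058 CPM and ranked 12 among the 498 known miRNAs with a count. bta-miR-26b stood at 2651 CPM and ranked 28. The family held between 1.63% and 3.91% of the known counts of a library (median 3.16%), below let-7 (median 13.5%) and near the miR-30 family (median 3.84%), 2 other families of abundant miRNAs.

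The miR-29 family was rare. bta-miR-29b had 536 counts over all libraries (45.7% of the family) and bta-miR-29c 496 (42.3%), and both were counted in 39 of 39 libraries. bta-miR-29a had 132 counts (11.3%) in 32 libraries. bta-miR-29d-3p had 7 counts in 5 libraries, and bta-miR-29e had 1 count in 1 library. Mean levels were 177 CPM for bta-miR-29b (rank 107 of 498), 162 CPM for bta-miR-29c (rank 110) and 45.3 CPM for bta-miR-29a (rank 163). The family held 0.0346% to 0.176% of the known counts (median 0.0876%). A typical library held 24 counts of the whole family (range 4 to 66), against 871 of miR-26 (range 139 to 2790), so that counting error weighs much more on miR-29.

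bta-miR-26a was one of the steadiest miRNAs of the oocyte. Its coefficient of variation over 39 libraries was 11.95%, which ranked 2 from the lowest among the 114 miRNAs with a mean of at least 100 counts. bta-miR-26b varied more, with 21.4% (rank 44). This measure includes counting error, which weighs less on abundant miRNAs such as bta-miR-26a than on bta-miR-26b. The mean of bta-miR-26a was highest in Control at 22 h, with 12106 ± 1126 CPM (SD, n = 3), and lowest in Control at 6 h, with 9291 ± 1005 (SD, n = 3), a ratio of 1.30. Between these ends stood, from high to low, Denuded 6 h, CBX 1 h, CBX 6 h, Coculture 22 h, Control 0 h, Denuded 1 h, Control 1 h, CBX 22 h, Coculture 1 h, Denuded 22 h and Coculture 6 h. Libraries of all 12 neighbouring pairs in this order overlapped, whereas those of its ends did not (8138 to 9984 CPM in Control at 6 h against 11097 to 13321 at 22 h). The ends were picked as the highest and lowest of 13 means, which favours such a separation, so it is no test.

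**Figure D1:**
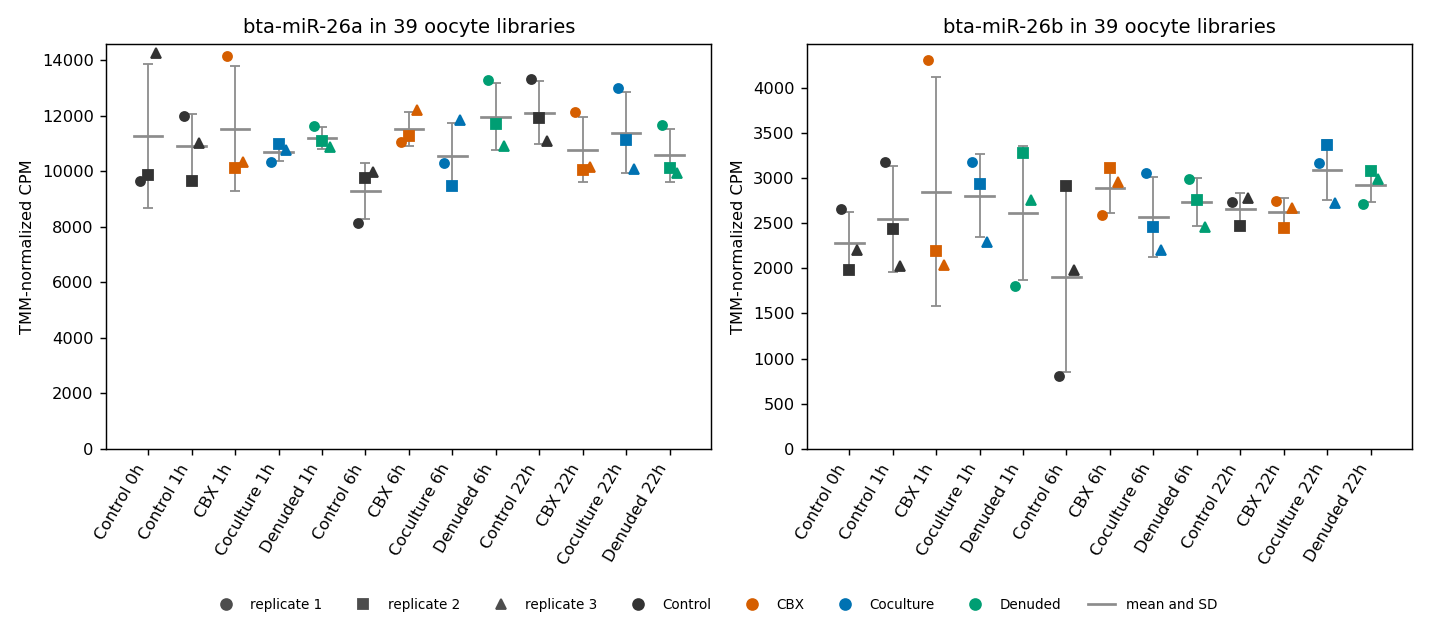
Levels of bta-miR-26a (left) and bta-miR-26b (right) as TMM-normalized CPM on linear axes from 0, in 13 conditions; points are libraries (shape, replicate number; colour, group), and grey lines are the mean and SD of 3 libraries. bta-miR-26a stays between 8138 and 14276 CPM in all libraries, and the lowest bta-miR-26b value, 808 CPM, is replicate 1 of Control at 6 h.

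bta-miR-26b varied more, and its conditions stood in another order. Its highest mean was 3085 ± 331 CPM (SD, n = 3) in Coculture at 22 h, and its lowest was 1903 ± 1056 (SD, n = 3) in Control at 6 h. The 3 libraries of the latter stood at 808, 2915 and 1984 CPM. The lowest of them rested on 15 counts in a library of 20180. In CBX at 1 h, 1 library stood apart upward, with 4307 CPM against 2187 and 2041 in the others. Summed, the miR-26 family ranged from 8947 CPM in Control 6 h replicate 1 to 18454 CPM in CBX 1 h replicate 1. Both extremes carried the replicate number 1, and condition means differed by at most 1.32 times.

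The miR-29 members differed more between conditions. The highest mean of bta-miR-29c was 269 ± 80.7 CPM (SD, n = 3) in Control at 0 h, where replicate 1 held 2 counts, under the floor of 3. Next came CBX 1 h (235), Coculture 1 h (210), Denuded 1 h (193), Control 1 h (186), Control 6 h (175), Denuded 6 h (166), CBX 6 h (155), Coculture 22 h (144), Coculture 6 h (123), Control 22 h (93.9) and Denuded 22 h (92.0). The lowest mean was 64.8 ± 16.5 CPM (SD, n = 3) in CBX at 22 h, where replicate 2 held 1 count, also under the floor. All neighbouring pairs in this order overlapped, while its ends, 4.15 times apart, did not. Here too the ends were picked by rank, so their separation is no test. All 5 conditions at 0 and 1 h preceded all 8 at 6 and 22 h.

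For bta-miR-29b the highest mean was 257 ± 123 CPM (SD, n = 3) in Coculture at 1 h and the lowest was 96.2 ± 57.2 (SD, n = 3) in Denuded at 22 h, 2.67 times apart. Its 3 libraries of Coculture at 1 h stood at 399, 196 and 177 CPM, and those of Denuded at 22 h at 145, 110 and 33.4 CPM. The last value rested on 2 counts, under the floor of 3, so that the lowest mean and the ratio are uncertain. bta-miR-29a passed the low-count filter in no fit. Without that filter, time over 36 libraries gave it an adjusted p = 0.63 by edgeR. It was not counted in any of the 3 Control libraries at 6 h, where the 3-count floor reached 148.7 CPM in replicate 1, and its highest mean, 77.9 ± 75.0 CPM (SD, n = 3) in CBX at 22 h, rested on 9 counts.

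**Figure D2:**
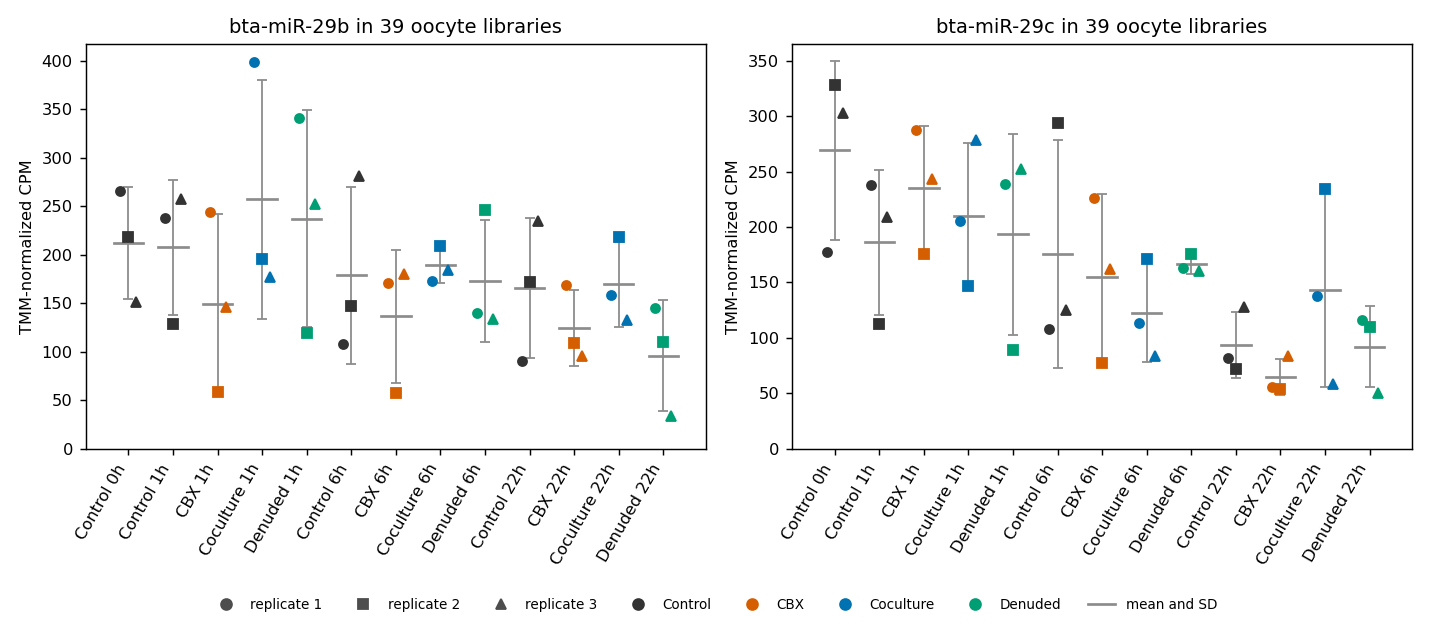
Levels of bta-miR-29b (left) and bta-miR-29c (right) as TMM-normalized CPM on linear axes from 0, in 13 conditions ordered by time; points are libraries (shape, replicate number; colour, group), and grey lines are the mean and SD of 3 libraries. For bta-miR-29c the 3 CBX libraries at 22 h (54.4 to 83.9 CPM) lie below the 3 at 1 h (175.7 to 287.1 CPM). The value of 54.4 CPM rests on 1 count.

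The first question of the design was whether the link to cumulus cells changed the oocyte's miRNAs. The groups were compared in 6 pairs at each of 1, 6 and 22 h with edgeR's quasi-likelihood F-test, with the replicate number as a block. A call needed a Benjamini-Hochberg adjusted p under 0.05 and a log2 fold change (second group over first) of at least 1 in size. Of the 8 members, bta-miR-26a and bta-miR-26b passed the low-count filter in all 18 comparisons, bta-miR-29b in 12 and bta-miR-29c in 9, and the others in none. This made 57 tests of members, of which 0 were called, 0 had an unadjusted p under 0.05, and DESeq2 also called 0. Over all miRNAs, 0.266% of the tests in these comparisons were called (21 of 7883). A count of 0 calls in 57 is therefore near what the background gives. An unadjusted p under 0.05 by edgeR was reached by 5.24% of all tests there (413 of 7883).

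For bta-miR-26a the log2 fold changes between groups lay between -0.22 and 0.31. The smallest p belonged to Control against Denuded at 22 h. Control libraries stood at 13321, 11899 and 11097 CPM and Denuded libraries at 11675, 10112 and 9940 CPM. The groups overlapped, and the log2 fold change was -0.22 (SE 0.14, adjusted p = 0.86 by edgeR).

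For bta-miR-26b the range was -0.14 to 0.63, and its smallest p was for Control against CBX at 6 h. Control stood at 808, 2915 and 1984 CPM and CBX at 2584, 3104 and 2959 CPM. CBX was higher in 3 of 3 replicate pairs, but the groups overlapped, and the difference rested largely on the Control library of 808 CPM (log2 fold change 0.63, SE 0.43, adjusted p = 0.94 by edgeR). The summed miR-26 family differed most by p between Control and Denuded at 6 h, where Control libraries stood at 8947, 12666 and 11969 CPM and Denuded libraries at 16267, 14446 and 13368 CPM. These did not overlap, yet the log2 fold change was 0.35 (SE 0.24, adjusted p = 0.80 by edgeR).

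For bta-miR-29b the range between groups was -0.53 to 0.76. The smallest p was for CBX against Coculture at 1 h, with 244, 58.6 and 146 CPM in CBX and 399, 196 and 177 CPM in Coculture. The groups overlapped, Coculture was higher in 3 of 3 pairs, and the counts were 28, 3 and 15 against 31, 20 and 14 (log2 fold change 0.76, SE 0.35, adjusted p = 0.999 by edgeR). For bta-miR-29c the range was -0.22 to 0.51, with the smallest p for Coculture against Denuded at 6 h (114, 171 and 83.9 CPM against 163, 176 and 160 CPM). The libraries overlapped there too (log2 fold change 0.46, SE 0.36, adjusted p = 0.96 by edgeR). The summed miR-29 family ranged from -0.43 to 0.28.

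All 36 libraries at 1, 6 and 22 h were then fitted together, which estimates the spread from more libraries. The group terms of this fit are means over 1, 6 and 22 h, and as such means the differences in miR-26 had narrow intervals. A difference at a single time is not bounded by them. The fit counts the times of a replicate number as separate evidence on group. Where such libraries share an ovary pool and change together, the SE are too small and the intervals too narrow. Denuded over Control had a log2 fold change of 0.35 at 6 h, while at 22 h the Denuded mean was lower (13502 against 14765 CPM). Against Control, the summed family had log2 fold changes of 0.04 in CBX, 0.06 in Coculture and 0.07 in Denuded (SE 0.09 each). The 95% intervals ran from -0.14 at the lowest to 0.26 at the highest, and the one for CBX was 0.907 to 1.17 times the Control level. For miR-29 the intervals were wide. The log2 fold changes were -0.18 in CBX (95% interval -0.63 to 0.26), 0.07 in Coculture (-0.37 to 0.50) and -0.09 in Denuded (-0.53 to 0.35). Neither family was called for group (adjusted p = 0.99 for miR-26 and 0.98 for miR-29 by edgeR), where 0.669% of the features of that table were. Of the single members, 0 of 4 were called for group, against 0.667% of all miRNAs (4 of 600). The miR-29 intervals span 0.647 to 1.42 times the Control level, so that mean differences within this range were not excluded.

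**Figure D3:**
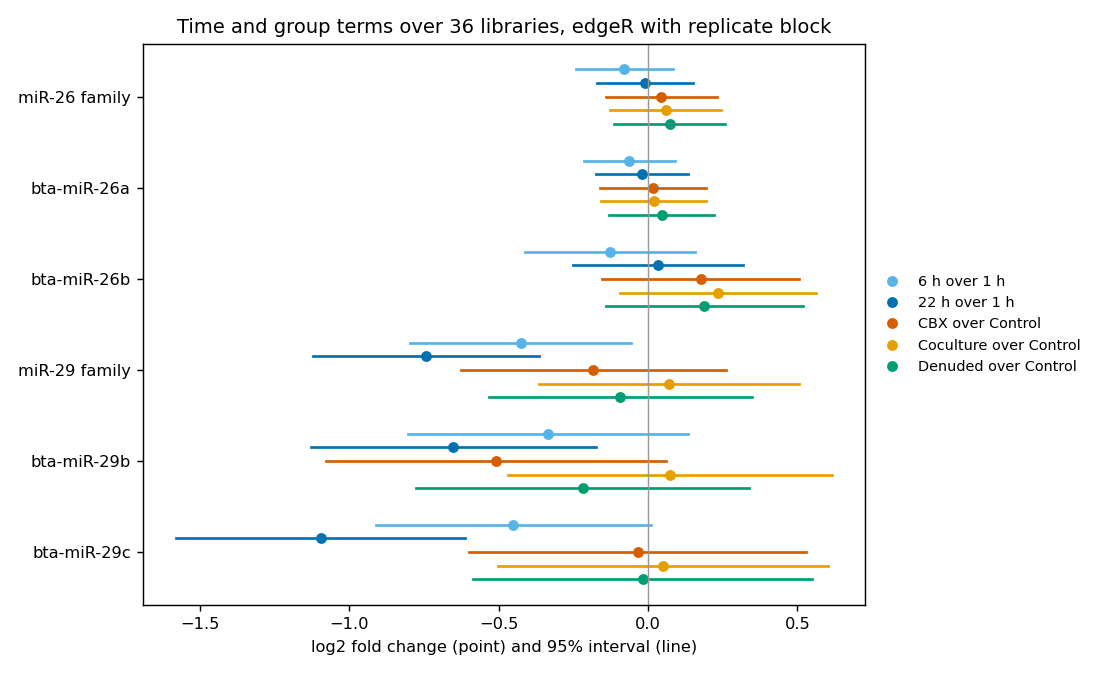
Log2 fold changes (points) with 95% intervals (lines) of both family sums and of the 4 members that passed the filter, for 2 time terms and 3 group terms fitted over 36 libraries; the vertical line marks no change. The miR-26 terms sit close to 0, whereas the 22 h over 1 h term of the miR-29 family, bta-miR-29b and bta-miR-29c lies below 0 with its whole interval.

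The second question was how the families moved over maturation, from the germinal vesicle stage to metaphase II. The miR-26 family showed no detectable change. Its median was 12316 CPM at 0 h (3 libraries), 13471 at 1 h, 13506 at 6 h and 14119 at 22 h (12 libraries each). Over 36 libraries the log2 fold change of 22 h over 1 h was -0.01 (SE 0.08, 95% interval -0.17 to 0.15), that is between 0.888 and 1.11 times the level at 1 h. Its sign turned under other settings, with values in the closing section. By member it was -0.02 for bta-miR-26a (SE 0.07) and 0.03 for bta-miR-26b (SE 0.14), and neither was called for time (adjusted p = 0.81 and 0.69 by edgeR).

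The miR-29 family was lower at 22 h than at 1 h. Its median was 532 CPM at 0 h (range 476 to 546 in 3 libraries), 510 at 1 h (208 to 708 in 12), 376 at 6 h (174 to 440 in 12) and 288 at 22 h (150 to 519 in 12). The ranges overlapped between all these times except 0 h against 6 h. Over 36 libraries the sum fell, with a log2 fold change of -0.74 at 22 h over 1 h (SE 0.19, 95% interval -1.12 to -0.37, adjusted p = 0.014 by edgeR), which is 0.597 times the level at 1 h. At 6 h over 1 h it was -0.43 (SE 0.18, adjusted p = 0.26). The test of time as a whole called the family (adjusted p = 0.035 by edgeR), where 4.85% of the features of that table were called. These fits count the groups of a replicate number as separate evidence on time. Where such libraries share an ovary pool and change together, the SE and p-values are too small.

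Among the single members, bta-miR-29c was called. It fell from 1 h to 22 h with a log2 fold change of -1.10 (SE 0.24, 95% interval -1.58 to -0.61, adjusted p = 0.013 by edgeR), to 0.468 times the level at 1 h. bta-miR-29b had a log2 fold change of -0.65 (SE 0.23, adjusted p = 0.067), which missed the threshold. For time as a whole, 1 of the 4 members that passed the filter was called, bta-miR-29c (adjusted p = 0.018), while bta-miR-29b was not (adjusted p = 0.16). Over all miRNAs, 4.83% were called for time (29 of 600). The median log2 fold change of all miRNAs tested was within 0.01 of 0 for 22 h over 1 h. TMM scaling itself centres most miRNAs near 0, so this median cannot show whether miRNAs changed as a whole. The limit from shared replicate numbers holds for the SE and p-values of these members too.

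The calls rested on libraries of replicate numbers 1 and 3. The fall from 1 h to 22 h was seen in every pair of replicate 1: the miR-29 family went from 540 to 222 CPM in Control, from 574 to 247 in CBX, from 708 to 323 in Coculture and from 624 to 290 in Denuded. In replicate 3 it went from 514 to 426, from 466 to 228, from 506 to 206 and from 585 to 150 CPM in the same order of groups. In replicate 2 it went from 288 to 286, from 332 to 326, from 362 to 519 and from 208 to 330 CPM. Thus the 8 pairs of replicates 1 and 3 were all lower at 22 h, whereas in replicate 2 a pair of groups held nearly the same level and the other pair was higher.

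In log2 units the mean change was -1.18 in replicate 1, -1.14 in replicate 3 and 0.29 in replicate 2 (4 pairs each). For bta-miR-29c it was -1.37, -1.69 and -0.34. Libraries of replicate 2 held fewer counts of the family, with a median of 19 against 52.5 in replicate 1 and 26.5 in replicate 3, and the CBX 22 h library of replicate 2 had 6. Without replicate 1 the adjusted p for time was 0.40 for the family and 0.19 for bta-miR-29c, and without replicate 3 it was 0.31 and 0.29. Without replicate 2 it was 0.0022 and 0.0021. With no low-count filter the family also lost its call (adjusted p = 0.078), and bta-miR-29c did not (0.041). Whether these differences between replicate numbers come from the ovary pools was not tested.

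**Figure D4:**
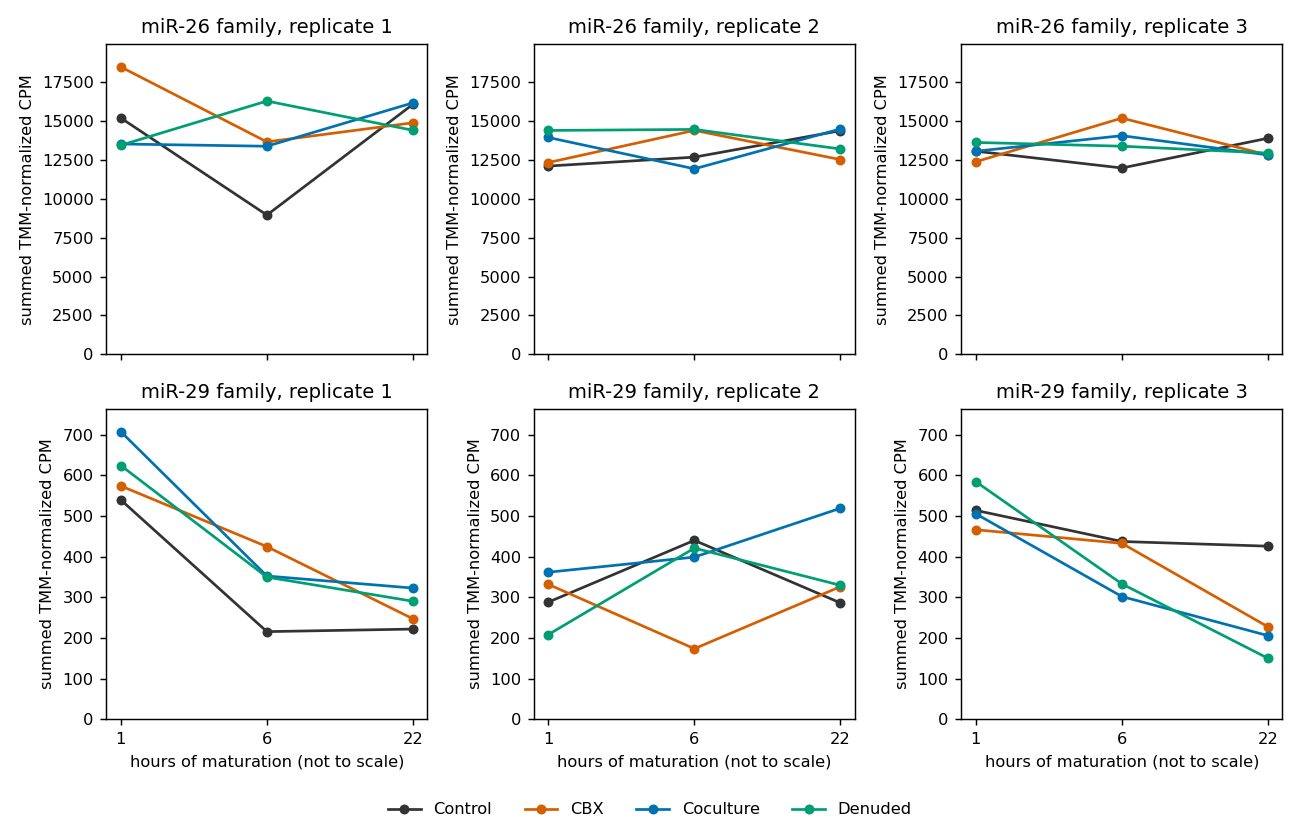
Summed TMM-normalized CPM of the miR-26 family (top) and miR-29 family (bottom) at 1, 6 and 22 h, on linear axes from 0; each line is a group, each point a library, and the panels separate replicate numbers 1, 2 and 3. In replicates 1 and 3 all miR-29 lines end lower at 22 h than at 1 h, and in replicate 2 they do not share a direction; the miR-26 lines stay between 8947 and 18454 CPM.

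As a check that does not use the count model, the 12 pairs of 1 h and 22 h libraries with the same group and replicate number were compared on log2(CPM + 1). The miR-29 family was lower at 22 h in 10 of 12 pairs, with a mean of -0.68 ± 0.82 (SD). An exact two-sided permutation test by sign changes gave p = 0.018, or 0.054 adjusted over the 6 features so tested. bta-miR-29c was lower in 10 of 12 pairs, with a mean of -1.13 ± 0.98 (exact permutation p = 0.0044, adjusted 0.026). bta-miR-29b was lower in 9 of 12 (exact permutation p = 0.055, adjusted 0.11). bta-miR-26a was lower in 6 of 12 and the miR-26 family in 4 of 12 (exact permutation p = 0.74 and 0.51). Pairs of 1 replicate number may share an ovary pool, and the test does not allow for that.

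Group by group, the time comparisons on their own 6 libraries made no call. In 54 tests of members over 15 comparisons, 0 were called by edgeR and 0 by DESeq2, and 3 (edgeR) and 2 (DESeq2) had an unadjusted p under 0.05. Over all miRNAs 0.170% were called there (11 of 6485). An unadjusted p under 0.05 by edgeR was reached by 6.65% of all those tests (431 of 6485). The 3 of 54 are therefore near the background share. The 3 were all of bta-miR-29c. In CBX its libraries stood at 287, 176 and 243 CPM at 1 h and at 56.2, 54.4 and 83.9 CPM at 22 h. The groups did not overlap, and the counts were 33, 9 and 25 against 5, 1 and 7 (log2 fold change -1.92, SE 0.42, adjusted p = 0.26 by edgeR). In Control its libraries stood at 237, 112 and 209 CPM at 1 h and at 82.2, 71.6 and 128 CPM at 22 h, which overlapped (log2 fold change -1.06, SE 0.42, adjusted p = 0.44 by edgeR). Against the 0 h Control libraries (177, 328 and 303 CPM) the log2 fold change at 22 h was -1.51 (SE 0.44, adjusted p = 0.76 by edgeR), and these groups did not overlap. The value of 177 CPM rested on 2 counts, under the floor of 3.

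The summed miR-29 family had log2 fold changes at 22 h over 1 h of -0.60 in Control, -0.91 in CBX, -0.65 in Coculture and -0.98 in Denuded (SE 0.33 to 0.49). None was called. In CBX its libraries stood at 574, 332 and 466 CPM at 1 h and 247, 326 and 228 CPM at 22 h and did not overlap (adjusted p = 0.39 by edgeR). The group-by-time interaction over 36 libraries was not called for either family (adjusted p = 0.98 for both by edgeR), and 0 of 598 features (0.00%) were called there, with 20 at an unadjusted p under 0.05. For miR-26, the smallest p over time was for Control at 6 h against 22 h. The family stood at 8947, 12666 and 11969 CPM at 6 h and at 16057, 14362 and 13877 CPM at 22 h, without overlap (log2 fold change 0.33, SE 0.19, adjusted p = 0.81 by edgeR).

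The levels of miRNAs linked to other cells were summed over the same hours. The list of 7 granulosa and cumulus miRNAs had a summed median of 6456 CPM at 1 h (5469 to 10406) and 7054 CPM at 22 h (5983 to 12644). Its members did not share a direction. Medians at 1 h and 22 h were 4002 and 5310 CPM for bta-miR-21-5p, 91.2 and 130 for bta-miR-132, and 106 and 111 for bta-miR-224. They were 863 and 398 CPM for bta-miR-202, 1721 and 1342 for bta-miR-503-5p, and 32.3 and 31.1 for bta-miR-383. The list of 5 leukocyte miRNAs had a median of 721 CPM (430 to 1697) at 1 h and of 4214 CPM (2195 to 13603) at 22 h, and these ranges did not overlap. bta-miR-155 in that list had medians of 287 and 3773 CPM. The others were bta-miR-150, counted in 39 of 39 libraries (medians 421 and 505 CPM), bta-miR-223, counted in 21 libraries (medians 0 and 12.5 CPM), bta-miR-142-5p, counted in 8, and bta-miR-142-3p, with 0 counts. The 3 erythroid miRNAs stood at 23.3 and 9.73 CPM and the 3 muscle miRNAs at 108 and 288 CPM (medians of the sums). Among the erythroid miRNAs, bta-miR-486 had medians of 18.8 and 9.73 CPM, while bta-miR-451 was counted in 10 libraries and bta-miR-144 in 4. Among the muscle miRNAs, bta-miR-206 had medians of 51.3 and 174 CPM and bta-miR-1 of 21.1 and 39.8 CPM, while bta-miR-133a was counted in 6 libraries. Median library totals were 78965.5 counts at 1 h and 74819.5 at 22 h. The part of these lists in the fall of miR-29 was not tested.

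The makeup within each family does not depend on scaling between libraries. bta-miR-26b made up a mean of 19.4% of the miR-26 counts at 1 h and 20.2% at 22 h, higher in 8 of 12 pairs (exact permutation p = 0.41, adjusted 0.54 over 8 such tests). It was 17.7% in Control, 19.6% in CBX, 20.6% in Coculture and 19.7% in Denuded, each higher than Control in 7 of 9 pairs. These comparisons share the same Control libraries, so they are not separate observations. None passed the exact permutation test (p = 0.10, 0.063 and 0.27, adjusted 0.32, 0.32 and 0.44). The lowest share, 9.04%, was in Control 6 h replicate 1. bta-miR-29c made up 50.4% of bta-miR-29b plus bta-miR-29c at 1 h and 41.7% at 22 h, lower in 7 of 12 pairs (exact permutation p = 0.12, adjusted 0.32). A difference between the falls of these members thus did not pass the test.

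Across the 39 libraries, other miRNAs resembled the members in pattern to different degrees, measured as Pearson's r of log2 CPM among 450 candidates with a mean of at least 10 counts. The libraries share conditions and scaling, so r is given as a description. bta-miR-26a was most like bta-miR-195 (0.63), and bta-miR-26b came 18 in its order (0.48). bta-miR-26b was most like bta-miR-152 (0.82). bta-miR-29b was most like bta-miR-29c (0.56), while bta-miR-29c was most like a trio of predicted miRNAs (0.60 to 0.61), with bta-miR-29b at place 9. Next in order came predicted miRNAs in each case (0.55 to 0.58 for bta-miR-26a, 0.78 to 0.79 for bta-miR-26b and 0.53 to 0.54 for bta-miR-29b). Hairpins of bta-miR-29b lie next to MIR29C and next to MIR29A, and its counts do not tell them apart. bta-miR-29a was under the count minimum and was not compared.

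Other miRNAs known to act on the same chromatin enzymes, bta-miR-101, bta-miR-148a, bta-miR-148b, bta-miR-152 and bta-miR-143, were followed beside them. None of their 90 group tests and 75 time tests was called, where 0.266% and 0.170% of all tests were. An unadjusted p under 0.05 by edgeR was reached by 5 and 9 of them, against 5.24% of all group tests (413 of 7883) and 6.65% of all time tests (431 of 6485). Their median log2 fold change was -0.10 between groups and -0.06 over time, and the comparisons' own medians over all miRNAs centred on -0.01 in both sets. bta-miR-148a, for example, had a log2 fold change of 0.42 in Coculture at 22 h over 1 h (SE 0.12, adjusted p = 0.38 by edgeR), and bta-miR-101 of -0.96 in CBX at 22 h over 6 h (SE 0.39, adjusted p = 0.81).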

How the data were processed

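The authors trimmed reads and removed duplicates by unique molecular identifier with UMI-tools (version 1.1.2 in the submitters' processing notes), and mapped them to ARS-UCD1.2. miRPro assigned them to miRBase or predicted miRNAs. The deposited tables hold whole-number counts per mature miRNA, not normalized; how reads shared by family members were counted is not given in the sources used here.

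Known and predicted counts were joined. Fits used edgeR 4.0.16 (limma 3.58.1, R 4.3.3) with the edgeR 3 behaviour, TMM, filterByExpr (minimum count 10, total 15), a block for the replicate number, and Benjamini-Hochberg adjustment across the whole table. SE is the log2 fold change divided by the square root of F; at low counts edgeR bounds p by a Poisson test, so p can exceed what the SE gives. Sums by family were fitted in a table where they replace the members. DESeq2 1.42.0 was an alternative. Shares within a family were compared on log odds with 0.5 added to each count. Scripts were tested on simulated data. Named values are the smallest-p comparison of each member and all calls.

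The replicate number stands for the ovary pool that the study's methods enter as batch; the labels do not say so, and p-values measure the spread between these libraries. Members and lists were chosen with earlier results of these data known.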

Additional observations from a re-analysis of the deposited data

Results flagged for a closer look

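bta-miR-26a moved in opposite directions from 1 h to 22 h in Control and CBX. It was higher at 22 h in 3 of 3 Control pairs (mean log2 change 0.15, range 0.01 to 0.30) and lower in 3 of 3 CBX pairs (mean -0.09, range -0.22 to -0.01), which makes a difference of 0.24 between the groups. The other groups lay on either side, with a mean of 0.08 in Coculture (1 of 3 pairs lower) and of -0.09 in Denuded (2 of 3 lower). The difference between Control and CBX was not tested by itself. The group-by-time interaction over 36 libraries, which covers all 4 groups and 3 times, was not called for bta-miR-26a (adjusted p = 0.98 by edgeR). The smallest changes in either group were about 0.01.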

How the results depend on the processing

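The group comparisons gave 0 calls of members under every alternative run: no replicate block, other size factors, DESeq2, no low-count filter, known miRNAs alone, the robust option, no fold-change threshold, a fit over 39 libraries and leaving out each replicate number. The time comparisons gave 1 call with no low-count filter (bta-miR-29c in CBX, 22 h over 1 h, log2 fold change -1.92, adjusted p = 0.042 by edgeR). Leaving out a replicate number gave 0 to 3 calls. The 3 came without replicate 2 (bta-miR-29c in CBX and Denuded, bta-miR-29b in Denuded). For time over 36 libraries, the adjusted p of the miR-29 family was 0.078 with no filter. An exact permutation of the 12 pairs of 1 h and 22 h libraries, added after seeing the data, gave 0.054, adjusted over 6 features. Leaving out a replicate number gave 0.0022 to 0.40 for the family and 0.0021 to 0.29 for bta-miR-29c. With no replicate block it was 0.045 for the family and 0.041 for bta-miR-29c, and no call changed. Pairs of libraries with the same number correlated at -0.0063 to 0.64 in the group comparisons, with every pair over 0.1 in 13 of 18, and at -0.16 to 0.60 in the time comparisons (6 of 15), so the numbers do not pair the libraries throughout. Every library correlated best with its own number in 14 of 18 and 7 of 15 comparisons. Over all miRNAs the calls for time went from 29 to 15 without the block. bta-miR-29b at 22 h over 1 h passed with library totals alone (-0.74, adjusted p = 0.037) and without replicate 2 (-0.95, adjusted p = 0.039).

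Signs turned for the following values, none of which was called. At 22 h over 1 h, the log2 fold change of the miR-26 family was 0.0029 with no filter, 0.020 with known miRNAs alone and 0.0043 without the 3 libraries under 25000 counts (added after seeing the data). That of bta-miR-26a was 0.019 with known miRNAs alone, 0.0029 without those libraries and -0.058 to 0.015 over the replicate numbers left out. That of bta-miR-26b was -0.038 with library totals and -0.079 to 0.14 over the replicate numbers left out. The log odds of the bta-miR-26b share over time ranged from -0.037 to 0.14 over the replicate numbers left out. For the bta-miR-29c share against Control they became -0.028 (CBX) and -0.045 (Denuded) in pairs with at least 20 counts, and over the replicate numbers left out they ranged from -0.20 to 0.068 in Coculture and from -0.10 to 0.30 in Denuded. The cause was not tested in any of these. Low counts limit miR-29 most. bta-miR-29a, bta-miR-29d-3p and bta-miR-29e were tested only with no low-count filter, where none was called for time (adjusted p = 0.63, 0.82 and 0.77 by edgeR).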
